A study of Mus musculus with 3 samples.

Results

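The genes described are 40 genes of protein folding and stress in the endoplasmic reticulum (ER). They were chosen by symbol, for their known roles and with earlier results of these data known. All 40 were found among the 20937 gene symbols of the count table. RNAseq had been run on the whole incisor enamel organ, the epithelium that makes enamel, of male mice aged 4 weeks. There was 1 library each of Stim1 cKO (AmelX-iCre+, Stim1 fl/fl, both alleles deleted), Stim1 HT (AmelX-iCre+, Stim1 fl/wt, 1 allele deleted) and Stim1 Ctrl (AmelX-iCre-, Stim1 fl/fl, no deletion). Stim1 cKO and Stim1 Ctrl share the floxed alleles, and Stim1 cKO and Stim1 HT share the Cre transgene, which the amelogenin promoter drives in ameloblasts. Stim1 encodes the calcium sensor of the ER, which opens the plasma membrane channels that refill the store. With 1 library per genotype there is no replicate of any group, so neither mouse-to-mouse spread nor dissection can be told apart from genotype.

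Proteins of the secretory pathway are folded in the ER by chaperones and disulfide isomerases, several of which bind and need calcium. When unfolded proteins accumulate, the sensors IRE1 (Ern1), PERK (Eif2ak3) and ATF6 (Atf6) raise chaperone genes, slow translation and send misfolded proteins to ER-associated degradation. Ameloblasts of the secretory stage export large amounts of enamel matrix protein, and collagen-making cells such as odontoblasts, osteoblasts and fibroblasts have the same need of the ER.

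The libraries held 20216507 to 28265960 counts. Expression levels are given as counts per 1000000 counts of the library (CPM), scaled between libraries by edgeR's TMM factors, so their sums differ between libraries, and a log2 fold change is that of Stim1 cKO against Stim1 HT and Stim1 Ctrl taken as 1 control group. Stim1, the targeted gene, was at 72.8 CPM in the Stim1 cKO library, against 129 CPM for Stim1 HT and 186 CPM for Stim1 Ctrl. The labels name ameloblasts as the cell type, and the 5 secretory-stage genes of the marker list were detected in each library. Their summed levels were 4848 CPM in the Stim1 cKO library, against 31964 CPM for Stim1 HT and 23904 CPM for Stim1 Ctrl. That sum includes Dspp, the dentin sialophosphoprotein gene. Alone of the 5, Dspp was above both controls, at 1264 CPM in Stim1 cKO against 792 CPM in each control. The 6 maturation-stage markers had a higher sum in Stim1 cKO, with 956, 395 and 172 CPM for Stim1 cKO, Stim1 HT and Stim1 Ctrl. So did the 7 dental epithelium markers, with 2875, 1800 and 1660 CPM. Markers of other tissues were present too and differed between libraries. The 6 fibroblast markers summed to 5005, 10980 and 17305 CPM in that order, the 7 bone and odontoblast markers to 32412, 41798 and 64412 CPM, and the 8 skeletal muscle markers to 3967, 22983 and 31379 CPM. Plasma cell markers, of which 6 of 7 had enough counts to be tested, summed to 193, 30.003 and 6.53 CPM, and the 3 retina markers listed to 776, 0.305 and 0.661 CPM. In whole tissue, fewer cells of one type and less RNA per cell cannot be told apart.

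Many of these genes carry known control elements just upstream of their start. The ER stress response element (ERSE) joins CCAAT, which NF-Y binds, to CCACG, which ATF6 binds, with 9 bases of any kind between them. It was searched for on both strands of RefSeq promoters (GRCm38.p6), which run from 250 bases before to 50 bases after the start. An exact match was present in the promoters of 9 of the 34 members that had one, or 26.5%, against 0.119% of all 32851 promoters. Because the members were chosen for known roles in ER stress, this excess is a description and not a test. The units also differ, since a member was counted if any of its promoters matched, whereas the 0.119% is per promoter. Each matching stretch is given on the strand of its gene, with the ERSE in capitals and 20 bases on each side. They are shown because the ATF6 branch is known to act through this element. A member without an exact match cannot be taken as outside that branch. In Calr, Creld2, Derl3 and the site of Hsp90b1 nearer to the start, the element lies on the opposite strand, so the capitals begin with the reverse complement of CCACG.
Hspa5, chr2:34772005-34772063, plus strand: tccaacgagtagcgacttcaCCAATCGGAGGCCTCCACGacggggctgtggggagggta
Hsp90b1, far site, chr10:86705618-86705676, minus strand: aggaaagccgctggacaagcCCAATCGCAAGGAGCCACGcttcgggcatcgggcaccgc
Hsp90b1, near site, chr10:86705513-86705571, minus strand: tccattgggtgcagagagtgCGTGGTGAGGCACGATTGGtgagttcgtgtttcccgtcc
Dnajc3, chr14:118937807-118937865, plus strand: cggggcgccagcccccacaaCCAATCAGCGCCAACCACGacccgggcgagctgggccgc
Creld2, chr15:88819500-88819558, plus strand: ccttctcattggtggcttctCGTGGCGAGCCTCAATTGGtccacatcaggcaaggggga
Calr, chr8:84847055-84847113, minus strand: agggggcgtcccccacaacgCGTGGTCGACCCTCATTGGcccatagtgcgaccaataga
Canx, chr11:50325780-50325838, minus strand: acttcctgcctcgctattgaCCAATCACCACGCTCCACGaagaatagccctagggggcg
Pdia6, chr12:17266471-17266529, plus strand: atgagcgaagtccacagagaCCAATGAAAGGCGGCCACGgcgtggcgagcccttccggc
Syvn1, chr19:6046512-6046570, plus strand: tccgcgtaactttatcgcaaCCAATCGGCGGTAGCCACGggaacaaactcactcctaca
Derl3, chr10:75893222-75893280, plus strand: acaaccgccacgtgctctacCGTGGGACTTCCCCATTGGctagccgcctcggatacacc

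Other elements were fewer. The shorter ERSE-II, ATTGG and CCACG with 1 base between them, was found in Dnajb11 and Herpud1, against 0.0365% of all promoters, and in Herpud1 it began 52 bases before the start. The element TGACGTGG, known as the UPRE, was found in 0 of the 34 members and 0.676% of all promoters. The amino acid response element TGATGNAAN, which ATF4 binds with C/EBP partners, was found in Trib3, Chac1, Asns and Herpud1, against 3.95% of all promoters, which is common for a short motif. Herpud1 thus held an ERSE-II and an amino acid response element, and both stretches are shown with the element in capitals, the second one on the opposite strand, as is that of Chac1.
Herpud1, ERSE-II, chr8:94386357-94386407, plus strand: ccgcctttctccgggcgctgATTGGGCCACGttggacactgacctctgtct
Herpud1, amino acid response element, chr8:94386296-94386344, plus strand: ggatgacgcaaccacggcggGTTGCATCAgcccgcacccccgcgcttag
Chac1, amino acid response element, chr2:119351028-119351076, plus strand: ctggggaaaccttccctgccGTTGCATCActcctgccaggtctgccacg

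No member was called in Stim1 cKO against the grouped controls. The call required an adjusted p under 0.01 (edgeR, quasi-likelihood, Benjamini-Hochberg over 18702 genes) together with a fold change over 2, and it was met by 0 of the 40 members and 0.0749% of all genes tested. An unadjusted p under 0.05 was reached by 6 members, all with lower levels in Stim1 cKO (P4hb, Pdia6, Pdia4, Sec61a1, Derl1 and Xbp1), whereas 13.4% of all genes tested reached it in that direction and 31.9% in either. DESeq2, run as an alternative, called 3 members, P4hb, Pdia6 and Sec61a1, all lower, against 4.71% of all genes called lower, and 0 members higher, against 5.92%. Both tests draw their spread from 2 control libraries of unlike genotype. In the edgeR test every gene called was higher in Stim1 cKO, and none was lower. Stim1, the targeted gene, was not called by it either. A lower member that was not called therefore cannot be read as unchanged.

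By level alone, 21 of the 40 members were below both controls in Stim1 cKO, 9 were above both and 10 lay between them. Among all genes tested, 42.1% were below both and 43.6% above both. Among the 14977 genes that averaged 50 counts or more, as all 40 members did, the shares were 47.6% and 38.3%. The median log2 fold change of the members was -0.23, against -0.01 for all genes tested and -0.12 for those with 50 counts or more. With library size scaling it turned to 0.024, when that of all genes became 0.25, and 15 members were then above both controls. Over 2-fold differences from both controls were few. P4hb and Pdia6 were over 2-fold below both, against 8.23% of all genes and 8.36% of those with 50 counts or more, and Derl3 alone was over 2-fold above both, against 19.1% and 14.3%. Library size scaling left no member over 2-fold below both, and RLE scaling none over 2-fold above both. In the plot of ratios to each control, disulfide isomerases stand to the left, while lumenal chaperones and degradation genes stand on both sides of 0.

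**Figure D1:**
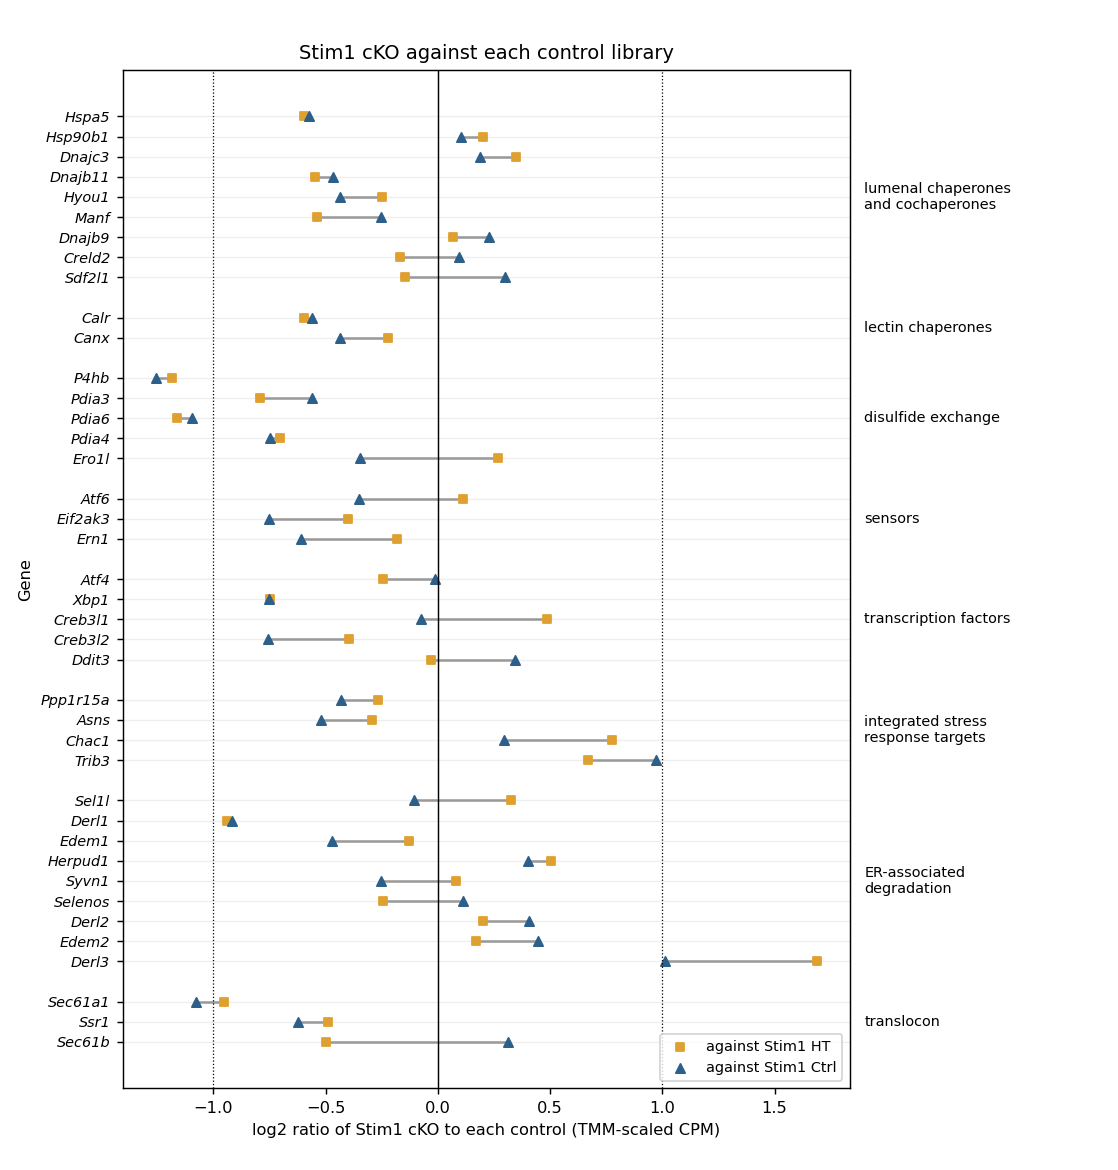
Log2 ratio of Stim1 cKO to Stim1 HT (squares) and to Stim1 Ctrl (triangles) for each of the 40 genes, in TMM-scaled CPM, grouped by role, with a line joining both ratios and dotted lines at 2-fold. P4hb and Pdia6 have both ratios below the lower line, and Derl3 has both above the upper line.

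The genes of disulfide exchange had the lowest median log2 fold change of any role, -0.73. P4hb encodes protein disulfide isomerase, which is also the beta subunit of collagen prolyl 4-hydroxylase, and lies on chromosome 11 from 120560298 to 120573253 (GRCm38). Its level was 368 CPM in the Stim1 cKO library, against 837 CPM for Stim1 HT and 878 CPM for Stim1 Ctrl, so the controls lay close together and Stim1 cKO stood apart. P4hb had a log2 fold change of -1.22 (edgeR adjusted p 0.0883), and DESeq2 gave -1.23 with a standard error of 0.293 and an adjusted p of 0.000454. Pdia6, another isomerase, on chromosome 12 from 17266545 to 17284770, had the ERSE shown above. It was at 117 CPM in the Stim1 cKO library, against 261 CPM for Stim1 HT and 249 CPM for Stim1 Ctrl. For Pdia6 the log2 fold change was -1.13 (edgeR adjusted p 0.0757, DESeq2 adjusted p 0.00234).

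Pdia3, the isomerase that works with calnexin and calreticulin on glycoproteins, was at 357 CPM in the Stim1 cKO library, against 618 CPM for Stim1 HT and 527 CPM for Stim1 Ctrl. Pdia4 was at 77.6, 126 and 130 CPM in the same order. Their log2 fold changes were -0.68 and -0.73 (edgeR adjusted p 0.232 and 0.140), and both were below both controls by more than the controls differed. Ero1l encodes the oxidase that recharges the isomerases, and was the one gene of its role between the controls, at 23.3 CPM in the Stim1 cKO library, against 19.3 CPM for Stim1 HT and 29.6 CPM for Stim1 Ctrl. Of the 5 genes of disulfide exchange, 4 were thus below both controls, against 42.1% of all genes tested, and the other was not.

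Lumenal chaperones did not share a direction. Hspa5 encodes BiP, the main HSP70 of the ER, and lies on chromosome 2 from 34771970 to 34777547. It was at 342 CPM in the Stim1 cKO library, against 517 CPM for Stim1 HT and 509 CPM for Stim1 Ctrl, for a log2 fold change of -0.58 (edgeR adjusted p 0.269). Hsp90b1 encodes GRP94, the HSP90 of the ER, on chromosome 10 from 86690209 to 86705509. It was at 508, 442 and 473 CPM in that order, with a log2 fold change of 0.15 (edgeR adjusted p 0.767). Both genes hold ERSE matches, yet BiP was below both controls and GRP94 slightly above both. Exons of Hsp90b1 overlap those of the antisense gene 1810014B01Rik over 10.3% of their length, and because the sources do not say whether strand was used in counting, reads there cannot be assigned to either gene.

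Among the cochaperones, Dnajb11, which serves BiP, was at 81.2 CPM in the Stim1 cKO library, against 118 CPM for Stim1 HT and 112 CPM for Stim1 Ctrl, for a log2 fold change of -0.51. Dnajc3, an inhibitor of PERK and cochaperone, was at 135, 106 and 119 CPM, a log2 fold change of 0.26. Dnajb9 had 38.6, 36.9 and 32.9 CPM, and Hyou1, a large HSP70 that exchanges nucleotides on BiP, had 79.4, 94.2 and 107 CPM. Sdf2l1 and Creld2, which are sensitive markers of the unfolded protein response, lay between the controls, with 12.8 CPM for Sdf2l1 in Stim1 cKO against 14.2 and 10.5, and 33.8 CPM for Creld2 against 38.0 and 31.7. Manf, a secreted factor that ER stress induces, was at 89.0 CPM in the Stim1 cKO library, against 129 CPM for Stim1 HT and 106 CPM for Stim1 Ctrl. Over the 9 genes of this role the log2 fold change ran from -0.58 to 0.26, with a median of -0.04.

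Calr and Canx encode calreticulin and calnexin, the lectin chaperones. Calreticulin also binds much of the calcium stored in the ER. Calr, which lies on chromosome 8 between 84841850 and 84846934, was at 532 CPM in the Stim1 cKO library, against 804 CPM for Stim1 HT and 785 CPM for Stim1 Ctrl, and had a log2 fold change of -0.58 (edgeR adjusted p 0.293). Canx was at 302, 353 and 408 CPM, with a log2 fold change of -0.33 (edgeR adjusted p 0.503). Both were below both controls.

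Ratios of counts within a library do not depend on the scaling between libraries. For each count of Hsp90b1 there were 0.725 counts of P4hb in the Stim1 cKO library (95% Wilson interval 0.705 to 0.745), against 1.89 for Stim1 HT (1.84 to 1.94) and 1.86 for Stim1 Ctrl (1.82 to 1.90). The corresponding ratio for Hspa5 was 0.675 (0.656 to 0.694), 1.17 (1.14 to 1.20) and 1.08 (1.05 to 1.10). The pairs were chosen after the levels had been seen, and the intervals cover counting error only. Over all roles, the genes of disulfide exchange took 19.7% of the counts of the 40 members in the Stim1 cKO library (19.5 to 19.9), against 28.3% for Stim1 HT (28.04 to 28.5) and 26.9% for Stim1 Ctrl (26.7 to 27.1). Lumenal chaperones took 27.6%, 22.7% and 22.3% in the same order, and degradation genes 11.2%, 8.32% and 8.74%. Among the lumenal chaperones, Hsp90b1 alone took 10.6%, 6.72% and 7.02%. A higher share of the members' counts is not a higher level. In TMM-scaled CPM, lumenal chaperones summed to 1320 in Stim1 cKO, against 1497 for Stim1 HT and 1502 for Stim1 Ctrl. Degradation genes summed to 536, 548 and 588 CPM in the same order. The lectin chaperones kept between 17.4% and 17.7% in each library. Together the 40 genes made up 0.538% of all counts in the Stim1 cKO library, against 0.641% for Stim1 HT and 0.613% for Stim1 Ctrl.

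**Figure D2:**
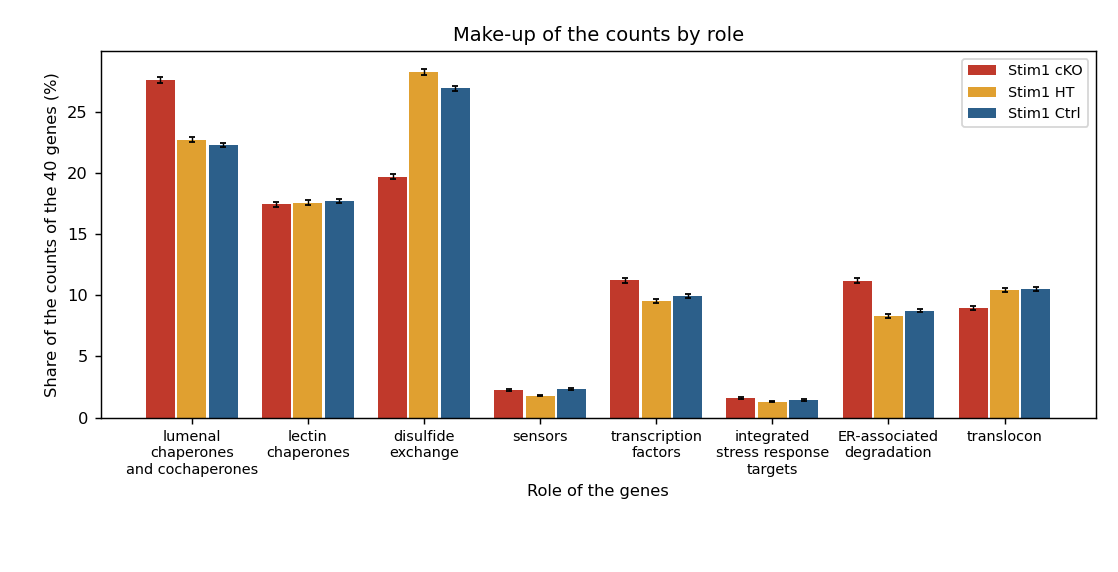
Share of the summed counts of the 40 genes that falls to each role, in percent, for Stim1 cKO, Stim1 HT and Stim1 Ctrl; error bars are 95% Wilson intervals and cover counting error only. In Stim1 cKO, disulfide exchange is at 19.7% and lumenal chaperones at 27.6%, against 26.9% to 28.3% and 22.3% to 22.7% in the controls. A role can hold a higher share without a higher summed level.

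The sensor genes were at 28.9 to 63.7 CPM, while the transcription factor genes ran from 16.5 CPM for Ddit3 in Stim1 Ctrl to 218 CPM for Atf4 in Stim1 HT. Ern1, which encodes IRE1, was at 28.9 CPM in the Stim1 cKO library, against 32.8 CPM for Stim1 HT and 44.1 CPM for Stim1 Ctrl. Eif2ak3, which encodes PERK, was at 30.2, 39.9 and 50.9 CPM, and Atf6 at 49.9, 46.1 and 63.7 CPM. In all 3 sensor genes Stim1 Ctrl had the highest level, and the log2 ratio of the controls (Stim1 HT over Stim1 Ctrl), from -0.46 to -0.35, was of the size of the fold changes, from -0.59 to -0.14. Atf6 lay between the controls. Against Stim1 HT, the nearer control, the log2 ratio of Stim1 cKO was -0.18 for Ern1, where that of the controls was -0.43, and -0.40 for Eif2ak3, where that of the controls was -0.35.

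Xbp1, the target that IRE1 splices, is a transcription factor for the secretory machinery and lies on chromosome 11 from 5520659 to 5525893. It was at 104 CPM in the Stim1 cKO library, against 174 CPM for Stim1 HT and 175 CPM for Stim1 Ctrl. The controls were nearly equal and Stim1 cKO was lower, a log2 fold change of -0.75 (edgeR adjusted p 0.143, DESeq2 adjusted p 0.0760). Counts per gene do not separate spliced from unspliced Xbp1. Atf4, the factor translated when PERK slows translation, was at 184, 218 and 185 CPM, so Stim1 cKO and Stim1 Ctrl had almost the same level. Ddit3, which encodes CHOP, a factor tied to cell death under lasting stress, was at 20.9, 21.3 and 16.5 CPM and lay between the controls.

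Creb3l1 and Creb3l2 encode membrane-bound factors of the ATF6 type that are known from bone and cartilage. Creb3l2 was at 86.0 CPM in the Stim1 cKO library, against 113 CPM for Stim1 HT and 145 CPM for Stim1 Ctrl. Creb3l1 was at 142, 101 and 149 CPM, between the controls. Of the 5 transcription factor genes, 3 (Xbp1, Atf4 and Creb3l2) were below both controls and 0 above both. Among all genes tested, these shares were 42.1% and 43.6%.

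Targets of the integrated stress response, the program that ATF4 drives, split evenly. Trib3, a pseudokinase that CHOP and ATF4 induce, had 131 counts in the Stim1 cKO library, against 67 for Stim1 HT and 71 for Stim1 Ctrl, or 5.41, 3.40 and 2.76 CPM. Chac1, which degrades glutathione, had 143, 68 and 124 counts, or 5.91, 3.45 and 4.82 CPM. Both were above both controls, with log2 fold changes of 0.81 and 0.51 (edgeR adjusted p 0.319 and 0.521). Asns, the asparagine synthetase gene, was at 29.6 CPM in the Stim1 cKO library, against 36.2 CPM for Stim1 HT and 42.4 CPM for Stim1 Ctrl, and Ppp1r15a, which encodes the phosphatase subunit GADD34 that restores translation, was at 35.0, 42.2 and 47.3 CPM. Of the 4 members with the amino acid response element, Trib3, Chac1 and Herpud1 were above both controls and Asns was below both. Among all genes tested, 43.6% were above both, and 38.3% of those with 50 counts or more. A link between the element and the level was not tested.

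Genes of ER-associated degradation differed from one another. Derl1 encodes derlin-1 of the retrotranslocation channel and lies on chromosome 15 from 57869502 to 57892448. It was at 67.7 CPM in the Stim1 cKO library, against 130 CPM for Stim1 HT and 128 CPM for Stim1 Ctrl, for a log2 fold change of -0.93 (edgeR adjusted p 0.0897, DESeq2 adjusted p 0.0252). Its paralog Derl2 was at 45.4, 39.4 and 34.2 CPM, above both controls. For each count of Derl2 there were 1.49 counts of Derl1 in the Stim1 cKO library (95% Wilson interval 1.38 to 1.61), against 3.29 for Stim1 HT (3.03 to 3.56) and 3.73 for Stim1 Ctrl (3.46 to 4.02).

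Derl3, the third derlin, had 91 counts in the Stim1 cKO library, against 23 for Stim1 HT and 48 for Stim1 Ctrl, or 3.76, 1.17 and 1.87 CPM. The log2 fold change of Derl3 was the highest of the members, at 1.30 (edgeR adjusted p 0.203, DESeq2 adjusted p 0.476), at the lowest level of the 40 genes. The gene is known from professional secretory cells. Of the plasma cell genes, Jchain had 765 counts in the Stim1 cKO library, against 6 for Stim1 HT and 2 for Stim1 Ctrl. All 6 tested genes of the plasma cell list were above both controls, against 43.6% of all genes tested. For Ighm the log2 ratio to Stim1 HT was only 0.035. The level of Derl3 was lower in Stim1 HT than in Stim1 Ctrl, at 23 and 48 counts in 1 library each. Of the 6 plasma cell genes, 5 were higher in Stim1 HT and 1 lower. The part of plasma cells in the level of Derl3 was not tested. Of the 6 tested salivary and lacrimal gland markers, 3 were above both controls, 2 below both and 1 between, with a median log2 fold change of -0.17. Among all genes tested, 43.6% were above both and 42.1% below both. In Stim1 HT, 3 of the 6 were higher than in Stim1 Ctrl and 3 lower. Bhlha15, 1 of those lower, was at 10.1 CPM in Stim1 cKO, against 4.62 for Stim1 HT and 9.25 for Stim1 Ctrl. The part of gland cells was not tested either.

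Herpud1, an early target of the response that organizes the degradation complex, was at 81.2 CPM in the Stim1 cKO library, against 57.3 CPM for Stim1 HT and 61.6 CPM for Stim1 Ctrl. It was above both controls, with a log2 fold change of 0.45 (edgeR adjusted p 0.260). Syvn1 and Sel1l encode the ligase HRD1 and its partner. Syvn1 was at 49.2, 46.5 and 58.8 CPM and Sel1l at 134, 107 and 144 CPM, both between the controls. Edem1 and Edem2, which trim mannose from proteins bound for degradation, were at 53.1 CPM for Edem1 in Stim1 cKO against 58.1 and 73.7, and at 39.6 CPM for Edem2 against 35.1 and 29.0. Selenos, a selenoprotein of the same complex, was at 62.2, 73.6 and 57.6 CPM. Of the 9 degradation genes, 2 were below both controls, 4 above both and 3 between. Among all genes tested, 42.1% were below both and 43.6% above both.

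The channel that admits proteins to the ER was represented by 3 genes. Sec61a1 encodes its pore and lies on chromosome 6 from 88503579 to 88518905. It was at 165 CPM in the Stim1 cKO library, against 319 CPM for Stim1 HT and 347 CPM for Stim1 Ctrl, for a log2 fold change of -1.02 (edgeR adjusted p 0.101). It was called by DESeq2 (adjusted p 0.00760), and 8.16% of its exon length overlaps the antisense gene Gm44170. Sec61b, a small subunit of the same channel, was at 57.1, 80.6 and 45.9 CPM and lay between the controls, which differed by 0.81 on the log2 scale, more than in any other member. Ssr1, of the translocon-associated complex, was at 205, 288 and 316 CPM, below both controls.

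**Figure D3:**
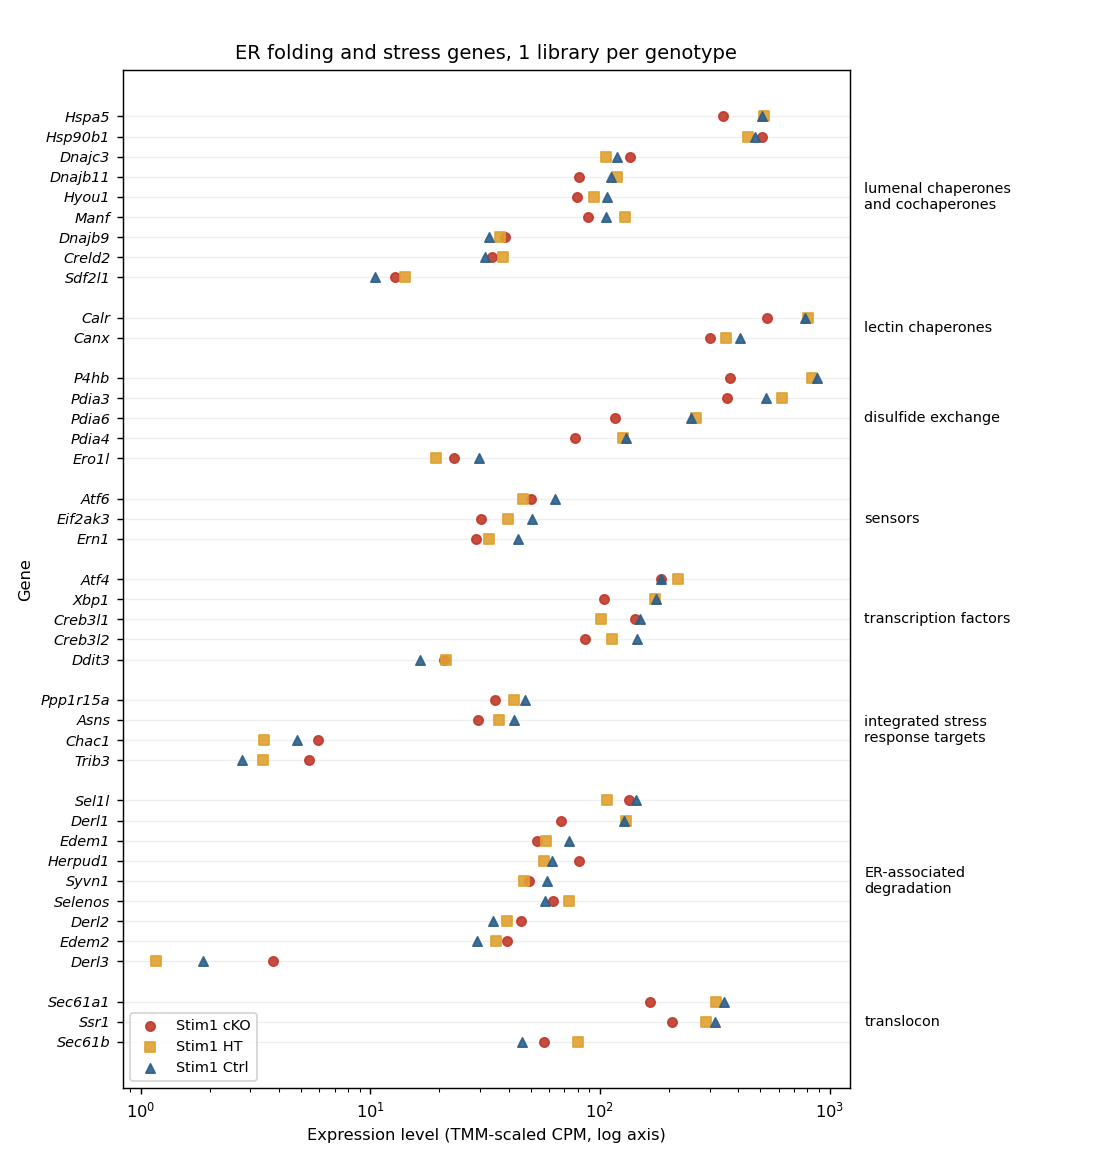
Expression level of the 40 genes in TMM-scaled CPM on a log axis, with 1 point per library (circles Stim1 cKO, squares Stim1 HT, triangles Stim1 Ctrl), grouped by role. P4hb, at 368 CPM in Stim1 cKO against 837 and 878 CPM, lies apart from its controls, whereas Hsp90b1, at 508 against 442 and 473 CPM, lies beside them.

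Levels of different genes were compared per kilobase of exon (GENCODE M21), for the 39 members with a single annotated gene, Ddit3 being left out. Calr and P4hb were the highest in each library, at 185 CPM per kb for Calr and 129 for P4hb in Stim1 cKO, 279 and 292 in Stim1 HT, and 273 and 307 in Stim1 Ctrl. P4hb came before Calr in both controls and after it in Stim1 cKO. Hsp90b1 moved from place 5 in both controls to place 3 in Stim1 cKO, at 126 CPM per kb, and Pdia6 from place 8 to place 14, at 31.1 CPM per kb. Neighbors in this order cannot be separated by a spread, since each level rests on 1 library. Derl3, Trib3 and Chac1 were at the low end in the controls, with 0.936, 1.30 and 2.94 CPM per kb in Stim1 Ctrl.

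Between Stim1 HT and Stim1 Ctrl, the members were close. None of the 40 differed more than 2-fold, against 13.5% of all genes tested and 8.16% of those with 50 counts or more. The log2 ratio of the controls (Stim1 HT over Stim1 Ctrl) ran from -0.68 for Derl3 to 0.81 for Sec61b, with a median of -0.08 against 0.00 for all genes, and the higher level was that of Stim1 HT in 17 members. In 17 of the 40 members Stim1 cKO was below both controls by more than the controls differed, against 29.9% of all genes and 34.2% of those with 50 counts or more. It was above both by that measure in 5 members, against 29.2% and 26.1%. With 1 library on each side, the controls could not be tested against each other.

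Members with an ERSE match lay in both directions. Of the 9, 4 were below both controls (Hspa5, Calr, Canx and Pdia6), 3 above both (Hsp90b1, Dnajc3 and Derl3) and 2 between (Creld2 and Syvn1). Among all genes tested, 42.1% were below both and 43.6% above both. Among those with 50 counts or more, the shares were 47.6% and 38.3%. The median log2 fold change was -0.10 for the 9 members with a match and -0.15 for the 25 members whose promoter had no match. Over the 12 other tested genes with an ERSE it was 0.22.

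The rest of the secretory machinery was described with 161 tested genes in 8 lists that hold no member. The edgeR test called 0 of them at the thresholds above, against 0.0749% of all genes tested. Of the 161, 119 were below both controls, 31 above both and 11 between. Among all genes tested, 42.1% were below both and 43.6% above both. Among those with 50 counts or more, the shares were 47.6% and 38.3%. The median log2 fold change of the 161 genes was -0.47. An unadjusted p under 0.05 was reached by 50 genes with lower levels, against 13.4% of all genes tested, and by 9 with higher levels. DESeq2 called 19 lower and 2 higher, against 4.71% and 5.92% of all genes.

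Genes of collagen folding lay lowest among these lists, which were written with earlier results of these data known. Of 14 genes, 13 were below both controls and 8 of them over 2-fold, with a median log2 fold change of -1.31. Among all genes tested, 42.1% were below both controls and 8.23% over 2-fold below both. Serpinh1, the collagen chaperone HSP47, was at 368 CPM in the Stim1 cKO library, against 1345 CPM for Stim1 HT and 1517 CPM for Stim1 Ctrl (edgeR adjusted p 0.0452, called by DESeq2). Fkbp9, a prolyl isomerase, was at 141, 552 and 630 CPM (edgeR adjusted p 0.0348). P4hb, which is also a subunit of collagen prolyl 4-hydroxylase, was lower in Stim1 cKO beside them, as were the 6 fibroblast markers, all below both controls. Muscle and secretory-stage ameloblast markers were lower as well, with 8 of 8 and 4 of 5 below both controls. So were 6 of 7 bone and odontoblast markers, 5 of 7 cartilage markers, and 6 of 6 neutrophil and 6 of 6 macrophage markers. The other bone and odontoblast marker, Bglap, lay between the controls. Dspp, the dentin sialophosphoprotein gene, was listed with the secretory-stage markers. It was above both controls, at 1264 CPM in Stim1 cKO against 792 CPM in each control. In the Stim1 cKO library, 5 of 6 maturation-stage ameloblast markers, 6 of 7 dental epithelium markers and 4 of 5 neuron markers were above both controls. That share was 43.6% for all genes tested. All 6 tested plasma cell markers and the 3 retina markers were above both too. The part of these tissues in the level of P4hb, Pdia6 and Sec61a1 was not tested.

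Other lists were nearer to the members. Genes of folding and disulfide exchange had a median log2 fold change of -0.43 over 27 genes. Of these, 21 were below both controls, against 42.1% of all genes tested. In that list Fkbp7 was at 23.1 CPM in the Stim1 cKO library, against 78.1 CPM for Stim1 HT and 78.2 CPM for Stim1 Ctrl, and Prdx4, a peroxiredoxin of the ER, at 24.8, 88.3 and 80.6 CPM. Clgn, a calnexin-like chaperone, was at 49.0, 15.4 and 3.07 CPM, and the log2 ratio of the controls (Stim1 HT over Stim1 Ctrl) was 2.32, so the controls differed as well.

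ER-to-Golgi transport had a median of -0.68 over 19 genes, 16 of them below both controls, against 42.1% of all genes tested. Its cargo receptor gene Surf4 was at 173, 501 and 502 CPM and Kdelr2, whose receptor returns escaped chaperones to the ER, at 86.0, 205 and 207 CPM. N-glycosylation and the calnexin cycle had a median of -0.70 over 15 genes, with Ddost, a subunit of the oligosaccharyltransferase, at 115, 237 and 239 CPM. Translocation and signal peptide genes had a median of -0.45 over 20 genes, and the other degradation genes one of -0.45 over 19 genes.

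Regulators of the response and ATF4 targets had the smallest medians, -0.14 over 19 genes and -0.22 over 28 genes. Among ATF4 targets, 17 were below both controls and 9 above both, against 42.1% and 43.6% of all genes tested. Slc7a11, the cystine transporter gene, was at 23.9 CPM in the Stim1 cKO library, against 6.55 CPM for Stim1 HT and 4.04 CPM for Stim1 Ctrl, and Nupr1, a small stress-induced nuclear protein, at 203, 93.8 and 59.4 CPM. Their adjusted p-values were 0.0445 and 0.0675 in edgeR's test, and DESeq2 called both. At the other end, Gars, a tRNA synthetase gene, was at 69.6, 136 and 147 CPM and Phgdh, of serine synthesis, at 32.4, 63.6 and 62.4 CPM. Agr2, an isomerase of mucus-secreting cells, was at 117, 28.2 and 2.64 CPM, with the controls further apart than Stim1 cKO and Stim1 HT.

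**Figure D4:**
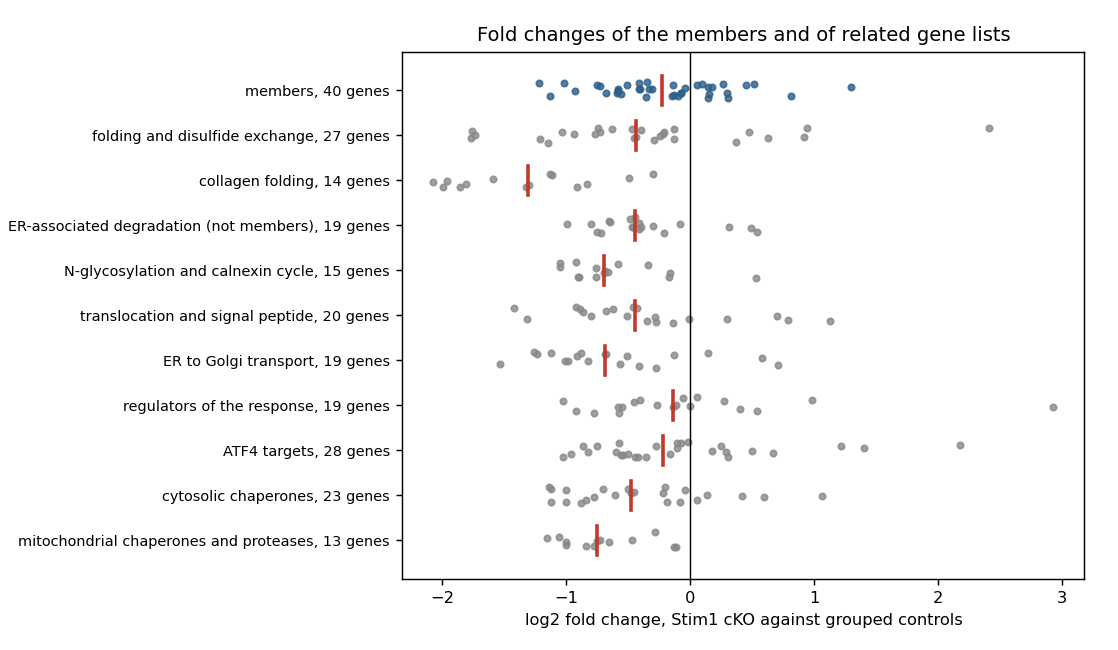
Log2 fold change of Stim1 cKO against the grouped controls for each tested gene (points, spread vertically for view) of the 40 members and of related lists, with the median of each list as a red bar. The medians run from -1.31 for collagen folding to -0.14 for regulators of the response, and that of the members is -0.23.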

How the data were processed

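RNAseq counts of 3 enamel organ libraries were used, 1 per genotype. The authors removed low-quality reads after FastQC, aligned trimmed paired-end reads with STAR and deposited raw counts per gene symbol. The genome build, annotation, counting tool and strand setting are not given in the sources used here. The methods name a poly-A NEBNext directional kit and the labels a SMARTER kit. Each of the 20937 symbols listed has at least 1 count in every library, and 25 symbols that had become dates (0.154% of counts) stayed in the fit.

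Counts were tested with edgeR 4.0.16 in R 4.3.3 (TMM, filterByExpr, 18702 genes kept, quasi-likelihood test). The common dispersion was 0.106 with 1 residual degree of freedom. Alternatives were DESeq2 1.42.0, RLE, upper-quartile and library size scaling, no filter, only genes averaging 50 counts or more, other thresholds, library sizes without mitochondrially encoded or main matrix genes, and leaving out each control. The test script was tested on simulated data. Positions and exon lengths are from GENCODE M21 on GRCm38, and promoters from RefSeq on GRCm38.p6, with 34 of 40 members matched, Ero1l by its newer symbol. The detection limit was set at 3 counts, or 0.117 to 0.152 CPM. The smallest count of a member was 23. Python 3.11.15 with pandas 2.3.3 and scipy 1.17.1 was used.

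All members could be named. Of each other list, genes called and the 2 highest and 2 lowest by distance of Stim1 cKO from the nearer control, with a mean of at least 50 counts, could be named. Markers could be named beside a member. The members and all lists were chosen with earlier results of these data known.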

Additional observations from a re-analysis of the deposited data

How the results depend on the processing

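No member was called by edgeR under any of the scalings, filters or thresholds tried, and 3 were called by DESeq2. Over all genes, the number called was 14 and became 50 with RLE scaling, 138 with upper-quartile scaling, 6 with library size scaling, 907 with no filter, 6 among genes averaging 50 counts or more, 1811 at an adjusted p under 0.05 and 1987 with DESeq2. The cause was not tested.

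The median log2 fold change of the members, -0.23, was -0.11 with upper-quartile scaling, 0.024 with library size scaling, -0.12 among genes averaging 50 counts or more, and -0.37 to -0.23 with 1 control left out. The median of all genes itself became 0.25 with library size scaling and 0.12 with upper-quartile scaling, so that relative to all genes the members stayed at -0.22 under both, but they were at -0.11 with the filter at 50 counts, -0.38 without Stim1 HT and -0.25 without Stim1 Ctrl. Between both controls, the median log2 ratio (Stim1 HT over Stim1 Ctrl) became 0.015 with library size scaling. The members above both controls, 9, became 15 with library size scaling and 14 above the remaining control when either control was left out. Those over 2-fold below both, 2, became 1 with upper-quartile scaling, 0 with library size scaling and 1 among genes averaging 50 counts or more. Derl3, over 2-fold above both, was not with RLE scaling (0 members) or, without Stim1 HT, against Stim1 Ctrl alone (0 to 1 with a control left out).

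The sign held in every alternative for 29 members and turned for 11. With upper-quartile scaling, library size scaling and the filter at 50 counts, the log2 fold change was 0.080, 0.21 and 0.064 for Creld2, 0.061, 0.19 and 0.037 for Ero1l, 0.034, 0.17 and 0.013 for Syvn1, and 0.045, 0.18 and 0.030 for Selenos. With library size scaling alone it turned to 0.13 for Atf6, 0.12 for Atf4 and 0.10 for Sec61b. With 1 control left out at a time, the log2 fold change ran from -0.15 to 0.28 for Sdf2l1, -0.17 to 0.080 for Creld2, -0.36 to 0.27 for Ero1l, -0.37 to 0.11 for Atf6, -0.029 to 0.33 for Ddit3, -0.090 to 0.49 for Creb3l1, -0.27 to 0.083 for Syvn1, -0.12 to 0.32 for Sel1l, -0.24 to 0.10 for Selenos and -0.50 to 0.30 for Sec61b.

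No paired analysis was possible because the groups hold 1 library each and the labels give no replicate numbers. Depth limits Derl3, Trib3 and Chac1, with 23 to 143 counts, more than the other members.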

Other observations

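Chaperones outside the ER were compared as well, in lists that hold no member. Of 23 genes of cytosolic chaperones, 17 were below both controls in Stim1 cKO and 3 above both, with a median log2 fold change of -0.48. Among all genes tested, 42.1% were below both and 43.6% above both. Hsp90aa1, the inducible cytosolic HSP90, was at 765 CPM in the Stim1 cKO library, against 399 CPM for Stim1 HT and 332 CPM for Stim1 Ctrl, whereas Cct5, a subunit of the cytosolic chaperonin, was at 112, 259 and 232 CPM. Of 13 genes of mitochondrial chaperones and proteases, 11 were below both controls and 0 above both, against the same 42.1% and 43.6%. Their median log2 fold change was -0.75. Hspd1, the mitochondrial HSP60, was at 138, 283 and 331 CPM. The edgeR test called 0 genes of either list, while an unadjusted p under 0.05 was reached by 7 cytosolic genes with lower levels and 1 with a higher level, and by 9 mitochondrial genes, all lower, against 31.9% of all genes in either direction and 13.4% lower. DESeq2 called 4 cytosolic genes lower and 1 higher and 2 mitochondrial genes lower, against 4.71% of all genes lower and 5.92% higher.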
